A study of Homo sapiens with 18 samples.

Results

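The genes described here are 10 members of the BCL2 family, the proteins that decide whether a cell's mitochondria release the factors that start apoptosis. They are BCL2L11, MCL1, BCL2L1, BCL2L2, BAD, BAK1, BID, PMAIP1, BMF and BIK, taken by name after Ensembl gene identifiers were matched to GENCODE symbols without their version. All 10 were found in every file, out of 60617 genes in the Illumina files and 58676 in the Oxford Nanopore (ONT) and PacBio files. The rule that names the genes uses no measured values, but the genes were chosen with earlier results of these data known. BCL2L11 was included for its known part in cell death after EGFR inhibition.

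Survival members of the family (MCL1, BCL2L1, which encodes BCL-XL, and BCL2L2, which encodes BCL-W) hold the pore-forming effectors in check. BAK1 encodes the effector BAK, which opens the outer mitochondrial membrane. The BH3-only members sense stress: BIM (BCL2L11) and BID bind survival proteins and can also activate effectors directly, whereas BAD, BMF, BIK and NOXA (PMAIP1) act mainly by occupying survival proteins, each with its own partners. In lung cancer cells that depend on mutant EGFR, the receptor's signalling keeps BIM low and lowers the activity of BAD, and the rise of BIM after EGFR inhibition is part of how such cells die.

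HCC827 and H1975 (NCI-H1975) are established human lung adenocarcinoma lines that carry activating EGFR mutations. Each line gave 3 independently grown RNA samples, and per the submitters these were read on each of 3 platforms, so that HCC827 and H1975 have 3 libraries each on ONT, on Illumina and on PacBio. Both lines were grown in RPMI medium with fetal calf serum to near confluency, and the labels list no drug. With 1 line of each kind, a difference between the lines cannot be assigned to any single one of the features in which they differ, and p-values measure the spread between the cultures of a line.

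Gene totals lay between 81467393 and 116497461 counts per ONT library and between 37795 and 54339 per PacBio library. Illumina libraries held 33362018 to 40200473 counts, except HCC827 replicate 2 with 10020699. Within PacBio, HCC827 replicates 1 and 2 and H1975 replicates 2 and 3 differed by less than the sampling noise (mean chi-square per gene of 0.671 and 0.550) and each pair was counted as 1 sample, which leaves 2 samples a line. PacBio HCC827 replicate 3 stood apart from the other two, with mean chi-squares of 4.41 and 4.88. The epithelial markers EPCAM, CDH1, KRT7, KRT8, KRT18 and KRT19 were all detected in both lines, with a summed Illumina level of 10237 to 14771 CPM (counts scaled to a common library size of 1000000) in HCC827 and 4332 to 4583 CPM in H1975. Markers of other cell types summed on Illumina to 101 to 118 CPM in HCC827 and 72.7 to 79.7 CPM in H1975 for 4 hematopoietic genes, of which CD3E was at 0 in HCC827. They summed to at most 5.47 CPM in any Illumina library for 3 endothelial genes and to at most 3.45 CPM for 4 fibroblast genes.

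The stretches just upstream of a RefSeq start site are shown for 3 of the genes, which carry the contrasts described below. BCL2L11 is the BIM gene that the choice of the family rests on, BMF was far higher in HCC827, and BID was lower there. The stretches come from RefSeq promoter windows on GRCh38.p14, cut to the part that no annotated exon covers. They read 5′ to 3′ on the strand of the gene. Those of BCL2L11 and BID lie inside the GENCODE span of the gene, before an internal start site, and that of BMF lies outside it. Capitals mark the letters GTAAACA (a FOXO motif), GGGCGG (the GC box) or CCAAT, on either strand.
BCL2L11 (chr2:111120664-111120913, plus strand): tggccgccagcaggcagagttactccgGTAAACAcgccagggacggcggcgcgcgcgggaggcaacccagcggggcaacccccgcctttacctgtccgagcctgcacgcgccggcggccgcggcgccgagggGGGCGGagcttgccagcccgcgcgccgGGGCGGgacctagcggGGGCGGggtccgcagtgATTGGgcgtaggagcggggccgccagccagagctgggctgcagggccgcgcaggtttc
BMF (chr15:40108893-40109129, minus strand): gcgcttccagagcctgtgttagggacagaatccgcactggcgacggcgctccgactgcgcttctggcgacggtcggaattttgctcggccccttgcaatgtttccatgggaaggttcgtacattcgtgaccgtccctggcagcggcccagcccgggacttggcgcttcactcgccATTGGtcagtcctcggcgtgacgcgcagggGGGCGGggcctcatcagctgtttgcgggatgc
BID (chr22:17774496-17774639, minus strand): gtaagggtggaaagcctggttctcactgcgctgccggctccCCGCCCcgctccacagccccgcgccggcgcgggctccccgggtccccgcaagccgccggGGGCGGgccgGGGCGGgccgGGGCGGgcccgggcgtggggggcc
FOXO proteins, transcription factors held out of the nucleus by AKT signalling, are known to drive BIM expression. GTAAACA occurred 1 time in the BCL2L11 stretch. That motif was in 2.98% of all 35116 windows of 250 bases, and in neither of the other windows shown. The BCL2L11 stretch also held 3 GC boxes and 1 CCAAT box, the BMF stretch 1 of each, and the BID stretch 4 GC boxes. GGGCGG was in 42.6% and CCAAT in 32.0% of all windows, and CACGTG (6.34%), TATAAA (10.7%), TGANTCA (6.57%) and TGACGTCA (1.65%), searched on both strands, matched none of the 3 stretches. A RefSeq window matched 7 of the 10 genes. BID has 5 such windows and BMF 2, for different start sites, and 1 of each is shown, picked with their letters known. CACGTG was in 2 of the BID windows that are not shown.

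**Figure D1:**
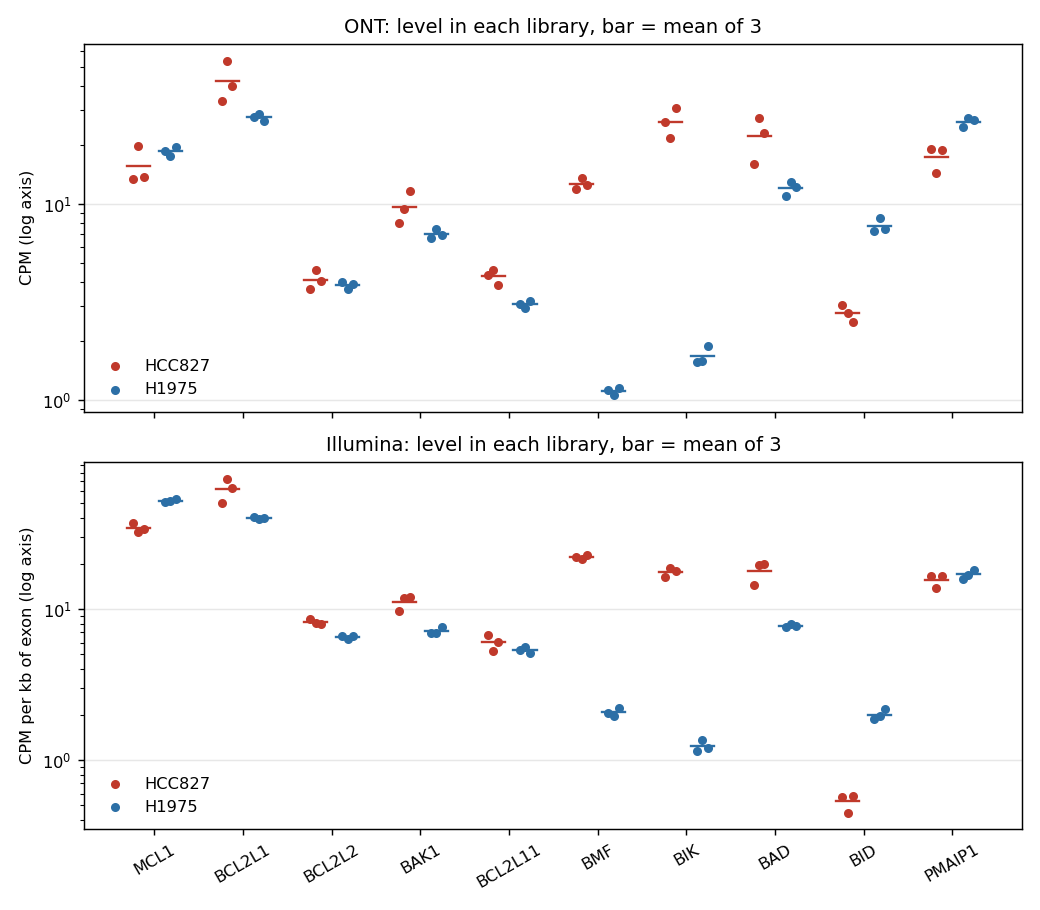
Level of each gene in each library, HCC827 in red and H1975 in blue, with a bar at the mean of 3 libraries; the upper panel gives ONT levels in CPM and the lower panel Illumina levels in CPM per kb of exon, both on log axes. BMF and BIK stand highest above H1975 in HCC827, and BID is the gene furthest below it.

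The first comparison asks how the resting levels of these genes differ between HCC827 and H1975. On ONT 6 of the 10 genes were higher in HCC827, 2 lower and 2 were not called, and the Illumina counts were also 6, 2 and 2. Of all genes tested, 31.1% were called higher in HCC827 and 31.6% lower on ONT, and 36.1% and 38% on Illumina, so being called at an adjusted p below 0.05 sets few genes apart in these lines (62.7% of all genes were called on ONT and 74.1% on Illumina). BMF, BIK, BAD, BCL2L1 and BAK1 were called higher and BID lower on both platforms. In bulk RNA, fewer cells that express a gene and less RNA of it per cell cannot be told apart. The median log2 fold of the 10 genes was 0.47 on ONT and 0.48 on Illumina, against -0.02 and -0.04 over all genes. Scaling by library totals alone, without the trimmed mean (TMM) factors, shifted the median of all genes by -0.55 on ONT and by -0.35 on Illumina (log2). With that scaling the share of calls that were higher in HCC827 was 23.9% on ONT, against 49.5% with TMM, and 33.7% on Illumina, against 48.8%. Among the 10 genes the counts then became 2 higher, 4 lower and 4 not called on ONT and 5, 3 and 2 on Illumina.

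**Figure D2:**
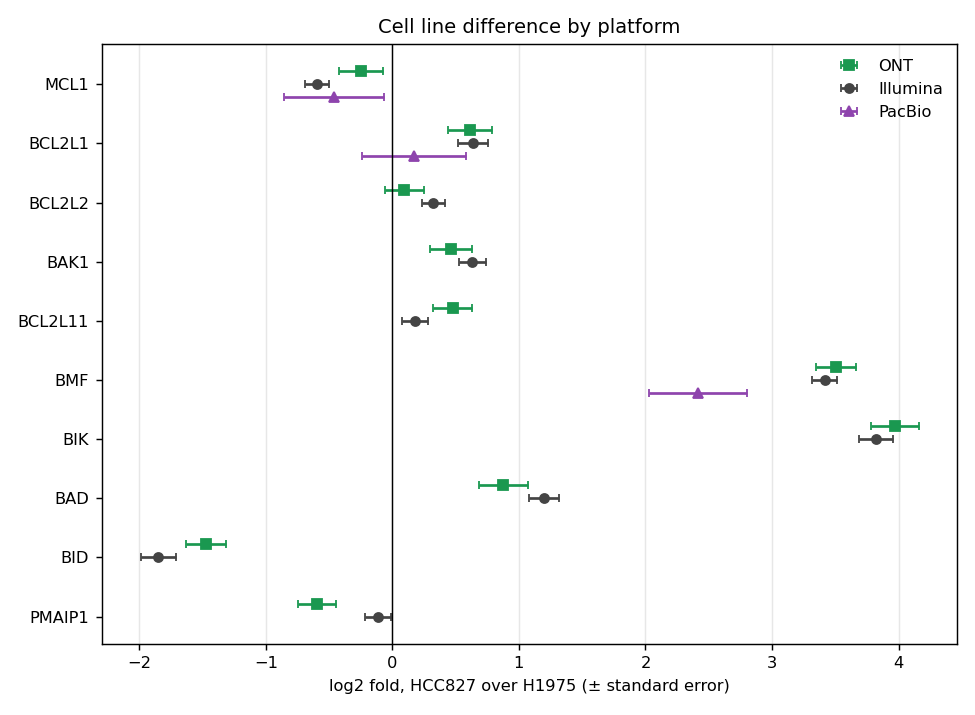
Log2 fold of HCC827 over H1975 for each gene, with its standard error, on ONT, Illumina and PacBio, where only 3 genes had enough counts to be fitted. BMF and BIK lie between 3.42 and 3.97 on ONT and Illumina, BID lies at -1.47 and -1.85, and the other genes stay within 1.20 of 0.

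Among the survival members, BCL2L1 was higher in HCC827 and MCL1 was the one that ran the other way. BCL2L1 (ENSG00000171552, GRCh38 chromosome 20, 31664452 to 31723989), whose main product BCL-XL binds both effectors and BH3-only proteins, had 33.6, 53.7 and 39.9 CPM on ONT in HCC827 replicates 1, 2 and 3, against 27.8, 28.6 and 26.5 CPM in H1975. Its Illumina level was 212, 307 and 267 CPM in HCC827 and 169.8, 166 and 168 CPM in H1975. The lines did not overlap on either platform, which held for 69.1% of all genes on ONT and 76.9% on Illumina, and the 3 HCC827 libraries were far more spread than those of H1975. BCL2L1 was 1.53-fold higher in HCC827 on ONT (log2 fold 0.62 ± 0.17, SE; edgeR adjusted p = 0.00956), a call lost with library totals alone (0.08, adjusted p = 0.745). On Illumina it was 1.56-fold higher (0.64 ± 0.12, edgeR adjusted p = 0.000278). ABALON, a noncoding gene on the opposite strand, covers 41.3% of its exon length, and since the strand setting of the counting is not given, the counts of BCL2L1 are uncertain. ABALON itself had a log2 fold of -0.06 ± 0.27 on ONT and 0.63 ± 0.12 on Illumina. Adding its counts to those of BCL2L1, an alternative chosen after the data were seen, gave 0.41 on ONT (adjusted p = 0.0279) and 0.64 on Illumina.

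MCL1 (ENSG00000143384, chromosome 1, 150560895 to 150579738) encodes a short-lived survival protein that NOXA and BIM bind. Its ONT level was 13.4, 19.8 and 13.8 CPM in HCC827 and 18.7, 17.6 and 19.5 CPM in H1975. Here the lines overlapped, because HCC827 replicate 2 lay above every H1975 library while replicates 1 and 3 lay below them. The log2 fold on ONT was -0.25 ± 0.17 (edgeR adjusted p = 0.228), and without HCC827 replicate 2 it was -0.42 (adjusted p = 0.00547). On Illumina, MCL1 had 229, 202 and 212 CPM in HCC827, against 316, 322 and 333 CPM in H1975, with no overlap. It was 1.51-fold lower in HCC827 there (log2 fold -0.59 ± 0.10, edgeR adjusted p = 5.9e-05). Library totals alone moved it further down on both platforms, to -0.78 on ONT (adjusted p = 0.00888) and -0.95 on Illumina. ADAMTSL4-AS1, on the same strand, shares 5.27% of the exon length of MCL1.

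BCL2L2 (ENSG00000129473, chromosome 14, 23298790 to 23311751) encodes BCL-W, a close relative of BCL-XL. It had 3.70, 4.59 and 4.06 CPM on ONT in HCC827 and 4.0003, 3.67 and 3.90 CPM in H1975, and the libraries of the lines interleaved. Its ONT log2 fold was 0.09 ± 0.15 (edgeR adjusted p = 0.616). On Illumina it had 41.4, 38.9 and 38.4 CPM in HCC827 and 32.2, 30.7 and 32.0 CPM in H1975, without overlap. It was 1.25-fold higher in HCC827 on Illumina (log2 fold 0.32 ± 0.09, edgeR adjusted p = 0.00446), but with library totals alone the fold was -0.45 on ONT (adjusted p = 0.0477) and -0.03 on Illumina, the opposite direction. BCL2L2-PABPN1, a readthrough gene on the same strand, shares 16.8% of its exon length and had folds of 0.30 ± 0.17 on ONT and 0.32 ± 0.09 on Illumina. With the readthrough counts added, BCL2L2 had 0.27 on ONT (adjusted p = 0.161) and 0.32 on Illumina. PPP1R3E, on the opposite strand, shares 6.51% of its exon length and had folds of 0.69 ± 0.19 on ONT and 1.03 ± 0.14 on Illumina, so the counts of BCL2L2 are uncertain.

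BAK1 (ENSG00000030110, chromosome 6, 33572547 to 33580293), the only effector among the 10, was modestly higher in HCC827. Its ONT level was 8.03, 9.40 and 11.7 CPM in HCC827 and 6.67, 7.49 and 6.94 CPM in H1975. Illumina gave 21.4, 26.2 and 26.5 CPM in HCC827, against 15.4, 15.3 and 16.8 CPM in H1975. All HCC827 libraries lay above all H1975 libraries on both platforms. The log2 fold was 0.46 ± 0.17 on ONT (1.38-fold, edgeR adjusted p = 0.0307), where library totals alone turned it to -0.10, and 0.63 ± 0.11 on Illumina (1.55-fold, adjusted p = 0.000103). The ONT call was also lost without HCC827 replicate 3 (0.32, adjusted p = 0.0839) and without any one H1975 replicate (adjusted p from 0.0650 to 0.117), although the fold was then 0.42 to 0.51. GGNBP1, a pseudogene on the opposite strand, shares 4.11% of the exon length of BAK1 and had nearly the same folds, 0.43 ± 0.16 on ONT and 0.64 ± 0.11 on Illumina, so the counts of BAK1 are uncertain.

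BCL2L11 (ENSG00000153094, chromosome 2, 111119378 to 111168444), the gene of BIM, differed less between the lines than most genes did. On ONT it had 4.36, 4.61 and 3.85 CPM in HCC827 and 3.07, 2.94 and 3.21 CPM in H1975, with all HCC827 libraries higher. On Illumina it had 45.5, 35.4 and 40.8 CPM in HCC827 and 35.9, 38.0 and 34.4 CPM in H1975, and HCC827 replicate 2, the shallowest Illumina library, fell among the H1975 values. BCL2L11 was 1.39-fold higher in HCC827 on ONT (log2 fold 0.48 ± 0.15, edgeR adjusted p = 0.0179), but with library totals alone its fold was -0.07 on ONT and -0.17 on Illumina. The Illumina fold was 0.18 ± 0.10 (adjusted p = 0.130), with a 95% interval from -0.02 to 0.38, and without HCC827 replicate 2 it was 0.27 (adjusted p = 0.0185). The ONT call was lost without any one H1975 replicate (adjusted p from 0.0602 to 0.0810), with folds of 0.44 to 0.50 that were about as large. By size, 67.1% of all genes on ONT and 87.3% on Illumina differed more between the lines than BCL2L11 did. MIR4435-2HG, a long noncoding gene on the opposite strand, shares 10.8% of its exon length and had folds of 0.12 ± 0.13 on ONT and 0.18 ± 0.10 on Illumina.

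BMF and BIK were the genes with by far the largest differences among the 10. BMF (ENSG00000104081, chromosome 15, 40087890 to 40108892) encodes a BH3-only protein known to be held at the cytoskeleton by a dynein light chain and released when cells detach. Its ONT level was 12.0, 13.5 and 12.5 CPM in HCC827, against 1.12, 1.06 and 1.15 CPM in H1975. On Illumina it was 119.6, 117 and 124 CPM in HCC827, against 11.1, 10.6 and 12.0 CPM in H1975. The replicates of each line were tight and the gap between the lines was many times wider than their spread. BMF was 11.4-fold higher in HCC827 on ONT (log2 fold 3.51 ± 0.16, edgeR adjusted p = 3.29e-08) and 10.7-fold higher on Illumina (3.42 ± 0.10, adjusted p = 2.29e-12), and with library totals alone its log2 folds were 2.96 and 3.06. Only 4.81% of all genes on ONT and 6.1% on Illumina had a larger absolute log2 fold. BMF-AS1, an antisense gene that shares 8.46% of its exon length, was higher to a like degree (3.28 ± 0.24 on ONT and 3.25 ± 0.12 on Illumina), and without a stated strand setting reads of the pair cannot be told apart.

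BIK (ENSG00000100290, chromosome 22, 43110750 to 43129712) encodes a BH3-only protein of the endoplasmic reticulum. It had 26.2, 21.6 and 31.0 CPM on ONT in HCC827, against 1.56, 1.58 and 1.90 CPM in H1975. The Illumina values were 15.6, 17.7 and 16.9 CPM in HCC827 and 1.09, 1.28 and 1.14 CPM in H1975, from 147 counts over the 3 H1975 libraries. It was 15.7-fold higher in HCC827 on ONT (log2 fold 3.97 ± 0.19, edgeR adjusted p = 5.35e-08) and 14.1-fold higher on Illumina (3.82 ± 0.13, adjusted p = 1.13e-11). Its absolute fold was exceeded by 3.77% of all genes on ONT and 4.96% on Illumina. No exon of another annotated gene overlaps those of BIK.

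BAD (ENSG00000002330, chromosome 11, 64269830 to 64284704) encodes a BH3-only protein that growth factor signalling is known to switch off by phosphorylation. On ONT it had 15.9, 27.5 and 22.9 CPM in HCC827 and 11.0, 12.95 and 12.2 CPM in H1975. The Illumina values were 24.7, 33.2 and 34.0 CPM in HCC827, against 12.99, 13.6 and 13.1 CPM in H1975. The lines did not overlap, and HCC827 replicate 1 was the lowest of its line on both platforms. BAD was 1.84-fold higher in HCC827 on ONT (log2 fold 0.88 ± 0.19, edgeR adjusted p = 0.00243), a call lost with library totals alone (0.34, adjusted p = 0.215), and 2.30-fold higher on Illumina (1.20 ± 0.12, adjusted p = 6.1e-07). GPR137, on the opposite strand, shares 23.7% of its exon length and was itself higher by 0.68 ± 0.18 on ONT and 0.70 ± 0.12 on Illumina.

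BID (ENSG00000015475, chromosome 22, 17734138 to 17774770), whose cleaved product carries the death receptor signal to mitochondria, was the gene furthest below H1975 in HCC827. Its ONT level was 3.07, 2.77 and 2.51 CPM in HCC827, against 7.25, 8.52 and 7.47 CPM in H1975. On Illumina it had 2.53, 1.98 and 2.54 CPM in HCC827 and 8.23, 8.59 and 9.62 CPM in H1975. Every HCC827 library lay well below every H1975 library. BID was 2.78-fold lower in HCC827 on ONT (log2 fold -1.47 ± 0.16, edgeR adjusted p = 1.6e-05) and 3.60-fold lower on Illumina (-1.85 ± 0.14, adjusted p = 2.76e-08). Larger absolute folds were held by 22.7% of all genes on ONT and by 16.6% on Illumina.

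PMAIP1 (ENSG00000141682, chromosome 18, 59899996 to 59904305) encodes NOXA, a p53 target whose main partner is MCL1. It had 19.0, 14.4 and 18.7 CPM on ONT in HCC827, all below the 24.7, 27.5 and 26.6 CPM of H1975. On Illumina it had 36.0, 30.0 and 36.1 CPM in HCC827 and 34.7, 37.0 and 39.5 CPM in H1975, and the lines overlapped. It was 1.51-fold lower in HCC827 on ONT (log2 fold -0.60 ± 0.15, edgeR adjusted p = 0.00520). On Illumina the fold was -0.11 ± 0.10 (adjusted p = 0.332), and with library totals alone it was -0.46 (adjusted p = 0.00189).

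**Figure D3:**
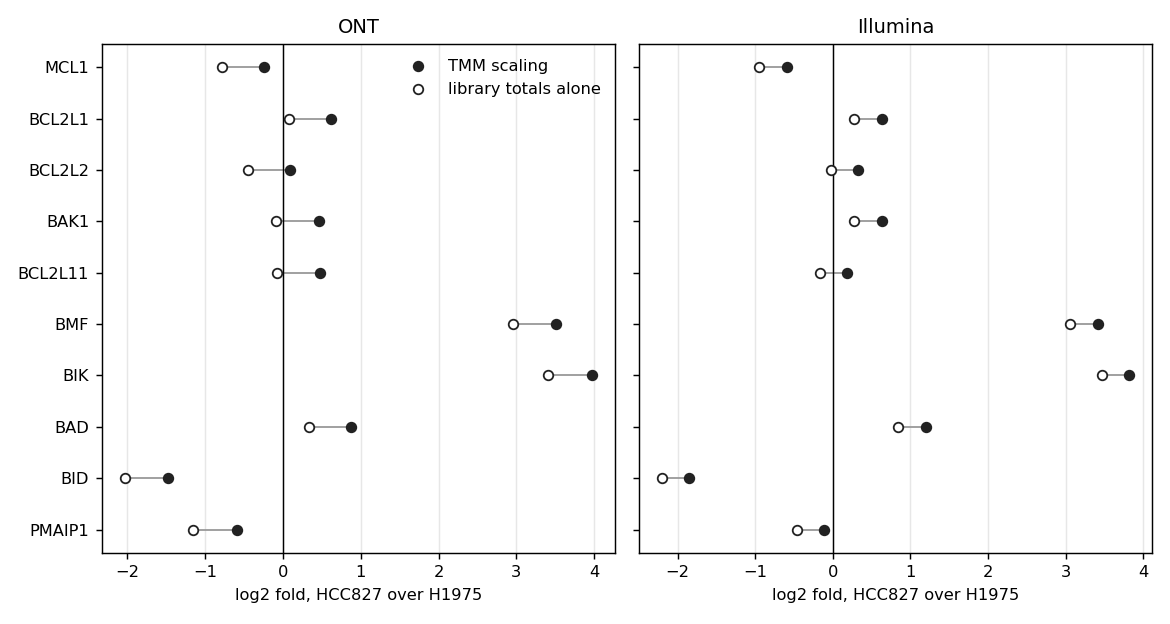
Log2 fold of HCC827 over H1975 for each gene with TMM scaling (filled) and with library totals alone (open), on ONT at the left and Illumina at the right. Every open point lies left of its filled point; BMF and BIK stay far above 0 and BID far below it, whereas BCL2L11 and BCL2L2 cross 0 on both platforms and BAK1 crosses it on ONT.

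Within a line, Illumina levels per kb of exon can be set beside each other. In HCC827 the order was BCL2L1 with 62.4 ± 11.3 CPM per kb (SD, n = 3), MCL1 with 34.5 ± 2.22, BMF with 22.04 ± 0.646, BAD with 17.9 ± 3.02, BIK with 17.6 ± 1.14, PMAIP1 with 15.6 ± 1.60, BAK1 with 11.2 ± 1.298, BCL2L2 with 8.18 ± 0.328, BCL2L11 with 6.02 ± 0.744 and BID with 0.532 ± 0.0724. The ranges of BAD, BIK and PMAIP1 overlapped as neighbours, and no other neighbours in the order did. In H1975 the order was MCL1 with 52.0 ± 1.35 CPM per kb, BCL2L1 with 40.1 ± 0.401, PMAIP1 with 17.0 ± 1.11, BAD with 7.75 ± 0.188, BAK1 with 7.16 ± 0.385, BCL2L2 with 6.54 ± 0.162, BCL2L11 with 5.35 ± 0.266, BMF with 2.07 ± 0.132, BID with 1.99 ± 0.163 and BIK with 1.23 ± 0.107. There BAD overlapped with BAK1 and BMF with BID. So on Illumina BCL2L1 led in HCC827 and MCL1 in H1975, and BMF and BIK, at ranks 3 and 5 in HCC827, were at ranks 8 and 10 in H1975. The order depends on the platform: in ONT reads, which were not divided by length, BIK was second in HCC827 with 26.3 CPM, and BCL2L1 led in H1975 as well, with 27.6 CPM against 18.6 CPM for MCL1. Taking the longest transcript as the length exchanged the places of BMF with BAD and of BIK with PMAIP1 in HCC827, and of BAK1 with BCL2L2 and of BMF with BID in H1975.

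Ratios within a library do not depend on how libraries are scaled to each other, so they show which members differ unequally. MCL1 over BCL2L1, the balance of the leading survival genes, was 0.728, 0.444 and 0.536 on Illumina per kb in HCC827, against 1.26, 1.304 and 1.34 in H1975. On ONT reads the ratio was 0.371 ± 0.0265 in HCC827 and 0.673 ± 0.0606 in H1975 (SD, n = 3 each). BCL2L11 over MCL1 was higher in HCC827, at 0.280 ± 0.0465 against 0.166 ± 0.00138 in H1975 on ONT and 0.174 ± 0.0109 against 0.103 ± 0.00694 on Illumina. The balance of BMF to BCL2L11 was 2.97 ± 0.252 in HCC827, against 0.362 ± 0.00319 in H1975, on ONT and 3.70 ± 0.415 against 0.388 ± 0.0437 on Illumina. BIK over BID was 9.57 ± 2.42 in HCC827 and 0.218 ± 0.0344 in H1975 on ONT, and 33.7 ± 6.92 and 0.620 ± 0.0713 on Illumina. The lines did not overlap in these 4 ratios on either platform, but each sets members with different folds over each other, so this follows from the folds given above and is a description only.

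**Figure D4:**
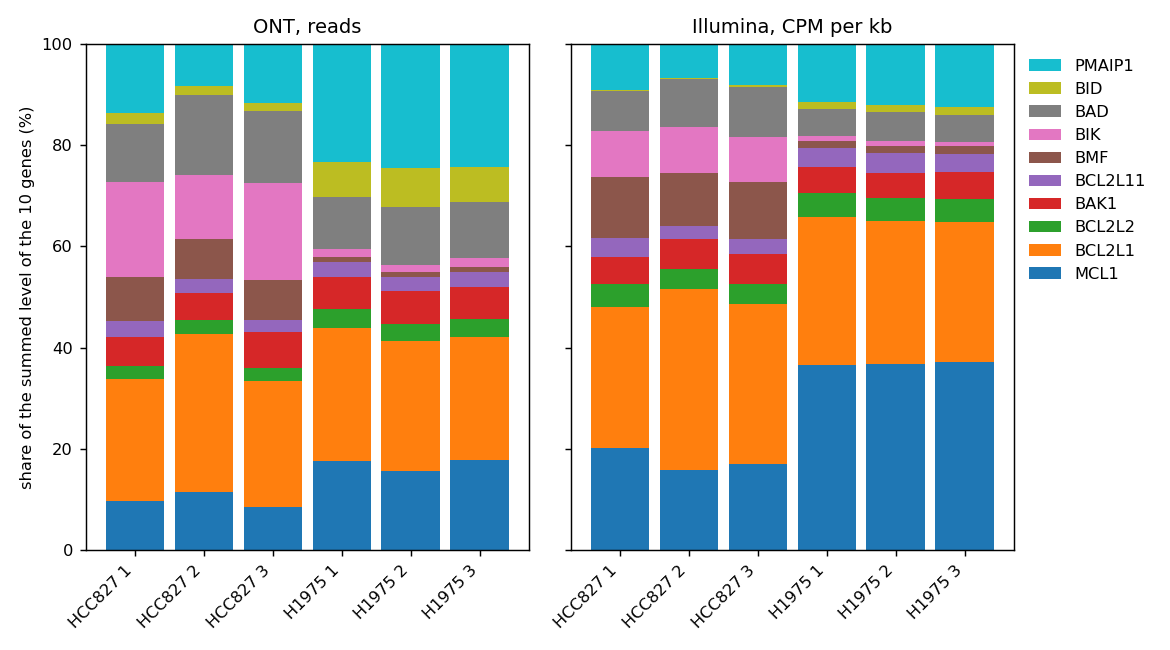
Share of each gene in the summed level of the 10 genes in each library, in ONT reads at the left and Illumina CPM per kb at the right, HCC827 before H1975. BMF and BIK take wider bands in every HCC827 library, and MCL1 and PMAIP1 take wider bands in every H1975 library.

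As a share of the summed level of the 10 genes, the 3 survival members took 39.2 ± 5.36% in HCC827 and 46.0 ± 1.60% in H1975 on ONT reads (SD, n = 3 each). On Illumina per kb the share was 53.6 ± 1.72% in HCC827, against 69.9 ± 0.626% in H1975. The 6 BH3-only members took 54.6 ± 4.77% in HCC827 and 47.6 ± 1.43% in H1975 on ONT, and 40.7 ± 1.84% and 25.1 ± 0.569% on Illumina. On ONT the survival share of HCC827 replicate 2, 45.4%, lay among the H1975 values and its BH3-only share, 49.1%, lay just above the highest of them (48.7%), whereas on Illumina the lines stood well apart. Of the same sum of 10 genes, BMF took 11.3 ± 0.778% in HCC827 on Illumina, against 1.46 ± 0.0726% in H1975, and BIK 8.98 ± 0.146%, against 0.873 ± 0.0769%. MCL1 had a smaller share, at 17.7 ± 2.26% in HCC827 and 36.9 ± 0.224% in H1975 on Illumina.

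PacBio counts were too few for most of the family. Summed over the 3 libraries of each line, there were 22 BMF counts in HCC827 and 4 in H1975, a ratio of totals of 5.98 with an exact 95% counting interval of 2.03 to 23.9. Such intervals, and limits for a count of 0, cover counting error only, since copies made by PCR are not independent molecules. The fit held 1885 genes, of which 3.34% were called (1.54% higher and 1.8% lower in HCC827). There BMF had a log2 fold of 2.41 ± 0.39 (edgeR adjusted p = 0.0223). BMF passed the filter on low counts through HCC827 alone, with 10, 5 and 7 counts by library there and 1, 3 and 0 in H1975. The call therefore gives no support of its own. That call was lost with DESeq2 (2.54, adjusted p = 0.723), with limma-voom (2.24, adjusted p = 0.0927) and without H1975 replicate 1 (2.37, adjusted p = 0.382), while the log2 fold stayed about as large. BCL2L1 had 53 counts in HCC827 and 51 in H1975 (0.17 ± 0.41, adjusted p = 0.846), and MCL1 had 39 and 56 (-0.46 ± 0.40, adjusted p = 0.550). The other 7 genes did not pass the filter on low counts: PMAIP1 had 12 counts in HCC827 and 11 in H1975, BAK1 8 and 9, BCL2L11 3 and 5, BAD 2 and 1, BCL2L2 1 and 2, and BID 0 and 1. The ratio of totals, HCC827 over H1975, was 0.652 for BCL2L11 (0.101 to 3.35), 2.175 for BAD (0.113 to 128), 0.544 for BCL2L2 (0.00921 to 10.4) and 0 for BID (0 to 42.4). BIK had no count in either line, which allows up to 22.5 CPM in HCC827 and 20.7 CPM in H1975 (3 counts of the summed total). Scaled to library totals, as the limit is, BIK in HCC827 had 20.9, 19.6 and 24.0 CPM on ONT, close to the HCC827 limit. On Illumina it had 14.7, 15.2 and 14.4 CPM with that scaling, below the limit. A difference between the lines was not detectable with no counts. The PacBio libraries were size-selected near 2 kb, and the MANE transcript of BIK has 951 bases; the part of that selection in the count of 0 was not tested.

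The second comparison asks whether the difference between the lines itself depends on the platform, ONT minus Illumina. Of all 29395 genes tested, 7.16% were called (5.03% with a higher fold on ONT and 2.13% with a lower one). Of the 10 BCL2 family genes edgeR and limma-voom called 0. The lowest adjusted p in edgeR were those of MCL1 (difference of log2 folds 0.51 ± 0.19, adjusted p = 0.135), BID (0.54 ± 0.21, adjusted p = 0.143) and BCL2L11 (0.46 ± 0.18, adjusted p = 0.150). This fit took the 12 libraries as separate samples, without the RNA sample as a block. In this joint fit the median over all genes was itself 0.11, and its differences do not equal those between the separate folds. Library totals alone shifted that median by -0.36, under which PMAIP1 was called (-0.69, adjusted p = 0.0232). Without replicate 2 of HCC827, the difference was 0.20 for MCL1 (adjusted p = 0.477), 0.26 for BCL2L11 (adjusted p = 0.424) and 0.43 for BID (adjusted p = 0.283). The 95% intervals of the differences over all libraries were 0.13 to 0.88 for MCL1, 0.13 to 0.96 for BID and 0.11 to 0.82 for BCL2L11. For BMF the difference was 0.25 (interval -0.08 to 0.58) and for BIK 0.31 (-0.14 to 0.75), both small beside folds above 3. PMAIP1 and BCL2L11, called on ONT alone, and MCL1 and BCL2L2, called on Illumina alone, were thus not shown to differ between the platforms.

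Levels of a gene in CPM differed between the platforms. In HCC827, MCL1 had 15.6 ± 3.58 CPM on ONT and 214 ± 13.8 CPM on Illumina, whereas BIK had 26.3 ± 4.66 CPM on ONT and 16.7 ± 1.08 CPM on Illumina (SD, n = 3 each). Illumina CPM count fragments, of which a longer transcript gives more, while an ONT read is counted once for each cDNA copy sequenced. Over the 10 genes, the ratio of ONT to Illumina CPM was lower for longer MANE transcripts (951 bases for BIK, 5098 for BCL2L11), with Spearman's rho = -0.806 in HCC827 and -0.915 in H1975. With Illumina CPM divided by kb of exon and ONT CPM as counted, rho was -0.709 in HCC827 and -0.818 in H1975. BID departed from its length: with a transcript of 2177 bases it had an ONT to Illumina ratio of 1.18 in HCC827 and 0.879 in H1975, against 0.393 and 0.444 for BAK1, whose transcript has 2170 bases. The amount of mRNA, the number of PCR cycles, the library kit and the instrument all changed from ONT to Illumina. Their parts in these ratios cannot be told apart.

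The genes beside the members on their chromosomes were read in the same fits, as the nearest 5 protein-coding genes tested on each side. Over all genes tested, 31.1% were called higher and 31.6% lower in HCC827 on ONT, and 36.1% and 38% on Illumina. Around BAK1, 9 of 10 neighbours were higher in HCC827 on ONT (median log2 fold 1.18) and 9 of 10 on Illumina (1.17), and around BAD 6 of 10 on ONT (0.87) and 9 of 10 on Illumina (1.03). BAK1, at 0.46 on ONT and 0.63 on Illumina, was below the median of its neighbours. BIK stood above the median of its neighbours, 0.18 on ONT and 0.53 on Illumina, but on Illumina its neighbour SULT4A1 had a larger log2 fold than BIK, 5.42. BMF ran against most of its neighbours. On Illumina 6 of these 10 were lower in HCC827 and 1 higher, and their median was -0.73 on ONT and -0.72 on Illumina. The neighbour PLCB2 had a log2 fold of 5.46 on Illumina, larger than that of BMF, and 3.34 on ONT. Around BID, 3 of 10 neighbours were lower on ONT and 7 of 10 on Illumina, with medians of -0.30 and -0.39, smaller than the difference of BID itself. The neighbours of BCL2L2 had medians of 0.50 on ONT and 0.52 on Illumina, and those of BCL2L1 -0.03 and 0.25. For BCL2L11 the medians were -0.25 on ONT and -0.18 on Illumina, for MCL1 -0.48 and -0.17, and for PMAIP1 -0.15 and -0.33.

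Other genes of the pathway were taken from lists chosen for their roles. The counts from these lists stand beside shares over all genes of 31.1% higher and 31.6% lower on ONT, and 36.1% and 38% on Illumina. Whether any list departs from these shares was not tested. Of 13 further BCL2 family genes, 5 were higher and 5 lower in HCC827 on ONT, and 6 and 5 on Illumina. BCL2, the founding survival gene, was lower in HCC827, with 0.0572 ± 0.0120 CPM on ONT against 0.930 ± 0.0964 CPM in H1975 (SD, n = 3 each). Its log2 fold was -4.01 ± 0.30 on ONT and -4.48 ± 0.31 on Illumina (edgeR adjusted p = 1.3e-06 and 1.26e-08). HRK, a BH3-only gene best known from neurons, was lower in HCC827, with log2 folds of -4.87 ± 0.36 on ONT and -3.43 ± 0.30 on Illumina. Over the 3 HCC827 libraries BCL2 had 14 counts on ONT and 8 on Illumina, and HRK had 30 and 22. Both genes passed the filter on low counts through H1975 alone, so these calls give no support of their own. BCL2L15 had 375 ONT counts in HCC827 and 2 in H1975, a ratio of totals of 159 (95% counting interval 43.8 to 1322), and 270 and 4 counts on Illumina. Named after their values were seen, BBC3, which encodes the BH3-only protein PUMA, was higher in HCC827 by 0.97 ± 0.22 on ONT and 1.19 ± 0.15 on Illumina, and BAX, the other main effector beside BAK1, had 0.21 ± 0.19 on ONT (adjusted p = 0.339) and was higher by 0.78 ± 0.11 on Illumina. These picks do not stand for the list. BCL2A1, of the same list, was higher in HCC827 by 1.76 ± 0.20 on ONT and 2.47 ± 0.35 on Illumina. BCL2L10 was lower there, with -2.22 ± 0.34 on ONT and -1.53 ± 0.31 on Illumina. With library totals alone 3 of the 13 were higher and 6 lower on ONT and 5 and 6 on Illumina, BBC3 lost its ONT call (0.43), and the ONT fold of BAX was -0.33.

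Downstream of the mitochondria, 2 of 9 apoptosome and caspase genes were higher and 4 lower in HCC827 on ONT, and 3 and 5 on Illumina. CYCS, which encodes cytochrome c, was lower in HCC827 (log2 fold -1.28 ± 0.15 on ONT and -1.09 ± 0.09 on Illumina). CASP10, an initiator caspase of death receptors, was higher by 0.74 ± 0.18 on ONT and 1.01 ± 0.13 on Illumina. Of 9 tested inhibitor of apoptosis genes and their antagonists, 5 were higher and 2 lower on ONT, and 4 and 4 on Illumina. They included BIRC3, which encodes cIAP2 (higher by 1.91 ± 0.21 on ONT and 2.11 ± 0.13 on Illumina), XAF1, an antagonist of XIAP (-2.07 ± 0.15 and -2.18 ± 0.12), and the mitochondrial protease HTRA2 (0.88 ± 0.19 and 1.35 ± 0.11). All 3 overlap a gene on the opposite strand, so their counts are uncertain.

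Of 11 tested death receptor genes, 3 were higher and 3 lower in HCC827 on ONT, and 6 and 4 on Illumina. The receptor FAS was lower, with log2 folds of -2.22 ± 0.26 on ONT and -1.87 ± 0.13 on Illumina, and so was TNFSF10, the gene of the ligand TRAIL, with -0.9996 ± 0.19 on ONT and -1.11 ± 0.18 on Illumina. TNFRSF10A, a TRAIL receptor, was higher by 0.996 ± 0.196 on ONT and 0.80 ± 0.11 on Illumina. TNFRSF10A shares exon sequence with genes on the opposite strand and FAS with genes on both strands, so these counts are uncertain. Of 16 regulators of the family, 4 were higher and 3 lower on ONT, and 7 and 7 on Illumina. USP9X, a deubiquitinase that stabilises MCL1, was lower, with log2 folds of -0.98 ± 0.19 on ONT and -1.40 ± 0.11 on Illumina, and the transcription factors E2F1 (1.59 ± 0.26 and 1.08 ± 0.15) and ATF4 (0.63 ± 0.13 and 0.96 ± 0.10) were higher. Each of the genes named here by size from these 4 lists was called on both platforms (edgeR, Benjamini-Hochberg), with adjusted p of at most 0.00384 on ONT and 8.0e-05 on Illumina. Their directions held with library totals alone, but CASP10 (0.18), HTRA2 (0.30), TNFRSF10A (0.46) and ATF4 (0.07) then lost their ONT calls. With that scaling the counts of higher and lower genes on ONT became 0 and 6 for the apoptosome and caspases, 1 and 3 for the inhibitors and antagonists, 0 and 6 for death receptor genes and 1 and 7 for the regulators.

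The genes whose pattern over the 12 ONT and Illumina libraries was most like that of BCL2L11 were CFAP418-AS1 (Pearson r = 0.967), PTPRK, a receptor tyrosine phosphatase (0.964), and HSPA13, an HSP70 family chaperone (0.960). CFAP418-AS1 and PTPRK each overlap a gene on the opposite strand. The 3 were found among 23432 genes on log2 CPM centred within each platform, and the libraries share their RNA samples, so this is a description of these 12 libraries only.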

How the data were processed

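Read counts per gene were used from 18 libraries: 6 RNA samples, 3 each of HCC827 and H1975, sequenced on 3 platforms. Per the labels' protocols, ONT cDNA libraries were made from 1.5 ng of mRNA with 14 PCR cycles, Illumina libraries from 3.75 ng in 11 cycles (directional kit, 75 nt paired reads), and PacBio Iso-Seq libraries from total RNA selected near 2 kb with 12 cycles. The values deposited by the authors are whole-number counts per gene, not normalized. The submitters' processing notes list the tools minimap2 2.17 and featureCounts and the GRCh38 build. Not given in the sources used here are the strand setting, the handling of reads with several matches and the release of the annotation. PacBio counts, per the file headers, come from clustered sequences, the PacBio HCC827 replicate 3 header alone names polyA, and the header of Illumina HCC827 replicate 3 reads HCC827.5.repeat. Its deviations from the group mean correlated at 0.27 with those of ONT HCC827 replicate 3, and at -0.14 with those of each of ONT replicates 1 and 2; PacBio was not compared.

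Sequin spike-ins (76 features) were left out and 45 second copies of X and Y genes were added to the X copy. Symbols, coordinates and exon lengths came from GENCODE release 44 (GRCh38), which matched 58207 of 58676 long-read genes and 60357 of 60617 Illumina genes. Tests used edgeR 4.0.16 in R 4.3.3 with TMM scaling, filterByExpr (minimum count 10), a robust quasi-likelihood fit, two-sided tests and Benjamini-Hochberg adjustment over all genes tested. Genes were called at an adjusted p below 0.05. The standard error comes from the fold and its F, and 95% intervals are 1.96 standard errors wide on each side. CPM are counts scaled to the TMM-scaled library size, except in PacBio, where they are scaled to the summed total. The fits were run on simulated counts in which far fewer genes differed than in these data, so this does not test the choice of scaling. DESeq2 1.42.0, limma-voom (limma 3.58.1), other scalings, no filter, a replicate block and leaving out each library were alternatives. ONT and Illumina libraries with the same line and number come from the same RNA sample, per the labels, and their deviations from the group means correlated at -0.02 to 0.32.

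The members and lists were chosen with earlier results of these data known. All 10 members are named. From the other lists, up to 3 genes were named, those with the largest absolute Illumina fold among genes called in the same direction on ONT and Illumina. A gene that this rule names is not reported here.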

Additional observations from a re-analysis of the deposited data

Results flagged for a closer look

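In 3 genes of the pathway lists the difference between the lines depended on the platform, by the interaction term of the edgeR fit over 12 libraries (7.16% of all genes tested were called). They were 1 of 13 further BCL2 family genes, 1 of 11 death receptor genes and 1 of 16 regulators. Called were 0 of the 10 members, 0 of 9 apoptosome and caspase genes and 0 of 9 inhibitors and antagonists. These are single genes and not a result about the pathway. The differences below come from the joint fit and do not equal those between the separate folds. In the joint fit the median over all genes was 0.11, and DESeq2 size factors shifted it by -0.11. Whether these 3 calls hold with other scalings was not tested. BCL2L14, a BCL2 family gene, was higher in HCC827 on both platforms and more so on ONT. It had 822 ± 101 CPM in HCC827 and 447 ± 50.0 CPM in H1975 on ONT, and 47.5 ± 2.61 CPM and 39.4 ± 1.2996 CPM on Illumina (SD, n = 3 each). Its ONT level was thus many times its Illumina level, whereas among the 10 members the highest such ratio was 1.57 (BIK in HCC827). The ONT counts of BCL2L14 are therefore uncertain. The log2 folds of BCL2L14 were 0.88 ± 0.14 on ONT and 0.28 ± 0.09 on Illumina, and the difference was 0.765 (adjusted p = 0.00704).

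CFLAR, which encodes the caspase-8 inhibitor c-FLIP, had 19.4 ± 1.48 CPM in HCC827 and 22.9 ± 2.07 CPM in H1975 on ONT, against 87.2 ± 2.56 CPM and 58.3 ± 2.33 CPM on Illumina. The log2 fold was -0.24 ± 0.14 on ONT (adjusted p = 0.160) and 0.58 ± 0.09 on Illumina, a difference of -0.658 (adjusted p = 0.0149). CFLAR shares exon sequence with other genes on both strands, so its counts are uncertain. DYNLL2, a dynein light chain that binds BMF, had 15.3 ± 5.84 CPM in HCC827 and 13.02 ± 0.385 CPM in H1975 on ONT, and 137 ± 1.81 CPM and 227 ± 0.465 CPM on Illumina. Replicate 2, with 22.01 CPM, was the highest HCC827 library on ONT, the others having 12.3 and 11.5 CPM. Its log2 fold was 0.23 ± 0.23 on ONT (adjusted p = 0.390) and -0.73 ± 0.09 on Illumina, and the difference was 1.12 (adjusted p = 0.00712). What lies behind these differences was not tested.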

How the results depend on the processing

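Leaving out each library in turn, the other tools, no filter and both other scalings kept the direction and call of BMF, BIK and BID on ONT and Illumina. With library totals alone BCL2L11 had -0.072 on ONT and -0.17 on Illumina, BCL2L2 -0.45 and -0.028, and BAK1 -0.10 on ONT, all reversed. In the comparison of ONT with Illumina the differences of BCL2L1 (-0.19), BMF (-0.10) and BIK (-0.066) reversed with library totals alone, and that of BAK1 reversed without a filter (0.016), between values that passed no threshold. Leaving out 1 RNA sample gave -0.23 to 0.038 for BCL2L2, -0.10 to 0.053 for BAK1 and -0.0031 to 0.20 for BCL2L1. The cause was not tested.

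The number of genes called between the lines on PacBio was 63, and became 475 with no filter, 15 with DESeq2, 34 with limma-voom and 206 with all 6 libraries as separate samples. It ranged from 0 to 365 when 1 library was left out. The count was 0 in edgeR without HCC827 replicate 1 or 2 or H1975 replicate 2 or 3, where 224, 251, 191 and 206 genes had an unadjusted p below 0.05, and 365 without HCC827 replicate 3. BMF was not tested in most of these fits. For the comparison of ONT with Illumina 2105 genes were called, and 3358 with library totals alone, with a range of 1101 to 2765 when 1 RNA sample was left out. In that comparison 70.2% of calls were higher in ONT, against 59.5% with DESeq2 size factors and 20.8% with library totals alone. The size factors moved the median of all genes by -0.11.

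With the replicate number as a block, 16320 genes were called on ONT (17163 without it), 18793 on Illumina (19061) and 50 on PacBio (with all 6 libraries separate). Between ONT and Illumina the block was the RNA sample, which the main fit left out, and 3109 genes were called (2105 without it). No call of the 10 genes changed on ONT, on Illumina or between them. The PacBio fit with the block tested only MCL1 and BCL2L1 of the 10, and neither was called there or without the block. Between the lines the numbers carry no pairing: deviations of same-numbered libraries correlated at -0.16 to 0.13, and not every library correlated best with its own number. Depth limits PacBio most, where 7 of the 10 genes were not tested.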
